A study of Mus musculus with 4 samples.

Results

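Kallikreins and related serine proteases were read as RNA in prostate of FVB mice homozygous for a TMPRSS2:ERG transgene and of wild-type FVB mice. The set holds 84 of the 23242 gene rows in the deposited table. It takes every symbol made of Klk, Prss or Tmprss followed directly by a digit, except Tmprss2, and adds Hpn, St14 and Corin. The homozygotes were mice 26 and 29 and the wild types mice 27 and 28, with 1 library each from ventral and dorsal prostate lobes. In homozygotes, exons of human ERG sit in the TMPRSS2 locus of a bacterial artificial chromosome, after Cre protein given at the pronuclear stage acted on its loxP-flanked GFP segment. The transgene is 1 insertion sub-line bred to homozygosity, so an effect of ERG and an effect of the insertion site cannot be told apart. The labels state neither age nor litter.

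Trypsin-like serine proteases cut proteins after lysine or arginine, and most are made as zymogens that another protease must clip. In prostate epithelium, kallikreins are secreted into the seminal fluid, while matriptase (St14), hepsin (Hpn) and prostasin (Prss8) sit at the cell membrane, process growth factors and channel subunits, and are held in check by Kunitz inhibitors. Mice have a large local expansion of Klk1-type genes and no single counterpart of human KLK3 (prostate-specific antigen), although the deposited table pairs Klk1b27 with it. The name trypsin-like does not cover every member: Klk1b7-ps is a pseudogene, Klk7 is a chymotrypsin-like enzyme and Prss16 is a thymus carboxypeptidase of another serine protease family.

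The proximal promoters of 4 Klk1-type genes are shown because the levels of these close relatives lay in opposite directions between the genotypes. Only Klk1b24 of the 4 passed the test given below. Klk1b11 did not pass, and Klk1b8 and Klk1b5 were too low to be tested in the main fit. The promoters of Prss27 and Prss53 are shown because both were higher in homozygotes. Each line gives the 100 bases before the RefSeq transcription start (GRCm38.p6, the mm10 build, C57BL/6J reference rather than FVB), 5′ to 3′ on the gene's strand. Capitals mark the core bound by ETS factors, GGAA on either strand, and a TATA-box variant, TTTAAA.
Klk1b24 (chr7:44188136-44188235, plus strand): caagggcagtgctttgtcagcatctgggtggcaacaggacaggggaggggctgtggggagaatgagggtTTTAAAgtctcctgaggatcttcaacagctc
Klk1b5 (chr7:44216374-44216473, plus strand): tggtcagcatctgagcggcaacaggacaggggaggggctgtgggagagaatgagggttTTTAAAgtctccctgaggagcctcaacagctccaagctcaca
Klk1b11 (chr7:43995777-43995876, plus strand): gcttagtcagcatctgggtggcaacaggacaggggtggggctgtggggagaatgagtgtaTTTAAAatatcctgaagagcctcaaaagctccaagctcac
Klk1b8 (chr7:43950566-43950665, plus strand): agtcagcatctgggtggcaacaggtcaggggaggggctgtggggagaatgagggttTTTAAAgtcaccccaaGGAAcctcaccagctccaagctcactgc
Prss27 (chr17:24038143-24038242, plus strand): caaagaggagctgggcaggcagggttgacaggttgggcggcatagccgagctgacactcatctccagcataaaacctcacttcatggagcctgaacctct
Prss53 (chr7:127890971-127891070, minus strand): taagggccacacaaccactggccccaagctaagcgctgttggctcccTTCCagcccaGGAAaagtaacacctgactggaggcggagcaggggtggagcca

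Over the 250 bases before the start, the 4 Klk1-type promoters shown were between 69.9% and 82.3% identical in pairs, while Klk1 shared 44.2% to 55.9% with the other Klk1-type promoters. Klk1b24 and Klk1b11 were 74.2% identical in a global alignment of 264 columns, and Klk1b11 and Klk1b5 were 82.3% identical over 254 columns. TTTAAA, which reads the same on both strands, occurred in 12 of the 14 Klk1-type promoters in the RefSeq table and in 0 of the 12 promoters of Klk4 to Klk15, against 12.1% of all 27025 promoters. GGAA was present on either strand in all 66 member promoters found, against 93.4% of all promoters of the same length, and its longer form AGGAAG, which contains it, in 34.8% against 29.2%. The androgen receptor motif AGAACA, searched on both strands, was found in 15.2% of member promoters and 16.2% of all. Of the promoters shown, those of Klk1b24, lower in homozygotes, and Prss27, higher in them, hold an AGAACA. Those of Klk1b5, Klk1b11, Klk1b8 and Prss53 do not. These matches describe letters in a window and were not set against binding data.

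The libraries were read as scaled FPKM (fragments per kilobase of transcript per 1e6 fragments, divided by a scaling factor of each library), a scale per length on which genes can be compared with each other. The step between the lowest values places the libraries near 45 to 52 × 1e6 fragments, an estimate, so 1 fragment on a 1-kilobase transcript is worth about 0.02 FPKM. Luminal prostate markers were present in all libraries, with probasin (Pbsn) between 9477 and 14386 scaled FPKM, and 0 of the 8 luminal and 0 of the 4 basal markers differed between genotypes at an adjusted p of 0.05 in limma. Of 7 seminal vesicle markers, 5 fell in homozygotes (median log2 fold change -7.16). Without Pate4, which carried most of the sum in homozygotes, they summed to 30.5 and 33.1 scaled FPKM in homozygotes 26 and 29, against 24702 and 1106 in wild types 27 and 28. Mouse 27 was thus highest in that sum, whereas mouse 28 was highest in urothelial markers. Upk3a was at 1.31 and 12.7 in homozygotes, against 1.91 and 51.7 in wild types. Mouse 28 was highest too in genes of nerve and of cornified epithelium, which were looked at after the values were seen. Th was at 0.763 and 0.490 scaled FPKM in homozygotes 26 and 29, against 0.660 and 6.23 in wild types 27 and 28, and Ivl was at 0.189 and 1.42 in homozygotes, against 0.131 and 12.3 in wild types.

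Of the 84 members, 28 were listed at 0 in all 4 libraries, 42 were detected but lay under the filter of a mean of 1 scaled FPKM, and 14 were tested. Most of the RNA came from membrane proteases and a few Prss genes, not from kallikreins. Prss8, St14, Prss23 and Tmprss13 together made up 69.2% and 72.3% of the summed member level in homozygotes 26 and 29, and 77.9% in both wild types. The sum over all members was 160 and 173 scaled FPKM in homozygotes, against 163 and 185 in wild types, and the groups overlap. Lower RNA per cell and fewer cells that make a transcript cannot be told apart in whole lobes.

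**Figure D1:**
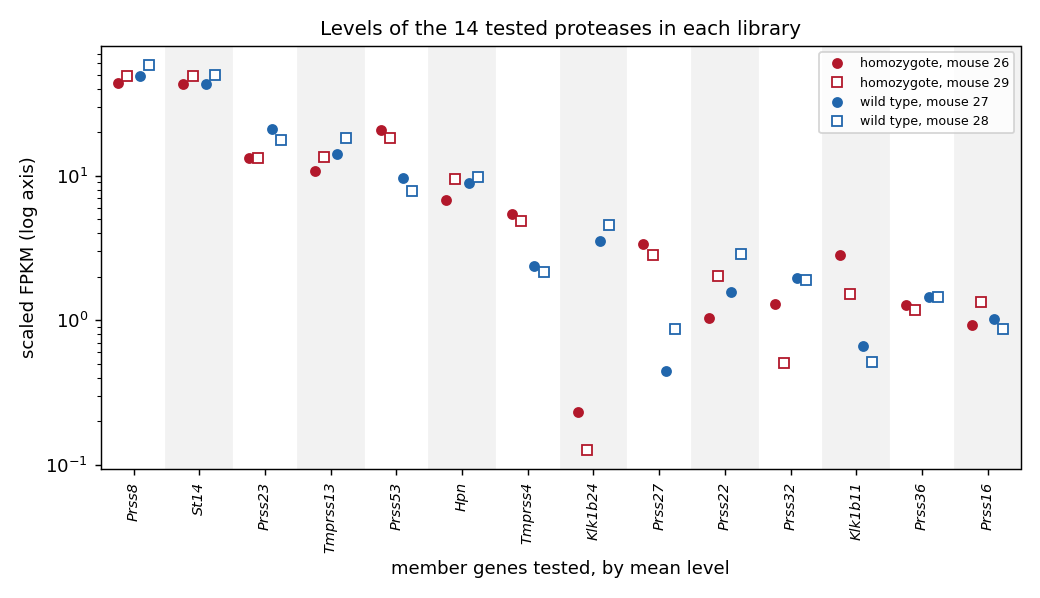
Scaled FPKM (log axis) of the 14 tested members in each library, ordered by mean level, with red for homozygotes and blue for wild types. Prss8 and St14 lie near 50 with the genotypes mixed, Prss53, Tmprss4 and Prss27 lie higher in both homozygotes, and Klk1b24 lies more than 10-fold lower in them.

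In the model fitted across all genes, 4 members separated the genotypes: Prss27, Prss53 and Tmprss4 were higher in homozygotes and the kallikrein Klk1b24 was lower. Each member's log2 fold change is that of scaled FPKM + 1, tested with limma and adjusted by Benjamini-Hochberg over 11762 genes. Of the 14 tested members, 3 were called higher and 1 lower, where 4.65% and 3.0% of all tested genes were called, 7.65% in all. The members' median log2 fold change was -0.16, against -0.003 over all tested genes. The genotypes did not overlap in 9 of the 14, with homozygotes above in 4 and below in 5, where 51.1% of all tested genes did not overlap. Klk1b24, Prss27, Klk1b11, Prss32 and Prss16 averaged under 1 scaled FPKM in one genotype and passed the filter through the other, so these counts are not read as a property of the family. An exact permutation test with 2 mice in each genotype has 6 arrangements and cannot reach the threshold of 0.05.

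**Figure D2:**
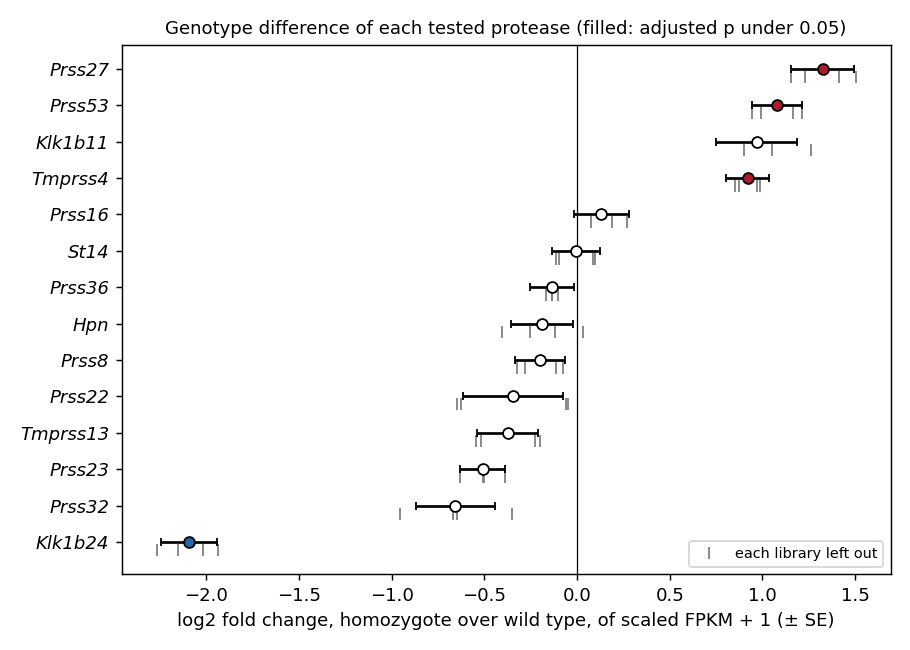
Log2 fold change, homozygote over wild type, of scaled FPKM + 1 for each tested member (points ± SE from limma, 2 mice in each genotype), with grey ticks for the fits that leave out each library, in which a genotype with 1 mouse left takes its spread from the other. Filled points have an adjusted p under 0.05. Klk1b24 at -2.09 and Prss27 at 1.33 lie farthest from 0, and St14 lies at -0.01.

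Among the Klk1-type genes, whose products include tissue kallikrein and its mouse relatives of salivary gland and kidney, 1 of 2 tested members was lower and none was called higher. Klk1b24 (Entrez 16617, chromosome 7, 44188263 to 44192451, mm10) was at 0.232 and 0.127 scaled FPKM in homozygotes 26 and 29, against 3.54 and 4.57 in wild types 27 and 28. It was the most abundant kallikrein in both wild types and a minor one in both homozygotes. Its mean was 0.180 ± 0.0743 in homozygotes and 4.06 ± 0.729 in wild types (SD, n = 2 each), giving a log2 fold change of -2.09 with SE 0.151 (limma adjusted p = 0.00163). The call held under every alternative in which the gene could be tested, with adjusted p between 1.33e-12 (the authors' q-value) and 0.0102 (no filter on low values), and at a minimum mean of 5 the gene was not tested. At a pseudocount of 0.1 the log2 fold change was -3.91, and in the authors' deposited table it is -4.55. The seminal vesicle markers were also lower in both homozygotes, and their part in the Klk1b24 value was not tested.

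Klk1b11 differed in the other direction, without passing the test. It was at 2.82 and 1.52 scaled FPKM in homozygotes 26 and 29, against 0.662 and 0.515 in wild types 27 and 28, and the genotypes did not overlap (log2 fold change 0.97, SE 0.218, limma adjusted p = 0.0602). Homozygotes 26 and 29 differ from each other by more than the wild types do. The gene was called higher without mouse 29 (limma adjusted p = 0.0202), without mouse 27 (0.0183), at a pseudocount of 0.1 (0.0476, log2 fold change 1.67), with a robust trend (0.0464) and in the authors' deposited table (q-value 0.00153). Over the alternatives in which the gene was tested, its adjusted p lay between 0.00153 and 0.119. It was not tested without mouse 26, the higher of the homozygotes, nor at the higher minimum mean. Whether the difference holds without mouse 26 is therefore not known.

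The kallikreins Klk1b8 and Klk1b5 lay under the filter and rest on few fragments. Klk1b8 was at 0.514 and 0.410 scaled FPKM in homozygotes 26 and 29, against 0.130 and 0.0873 in wild types 27 and 28, which corresponds to about 20, 19, 4.7 and 3.5 fragments. Klk1b5 was at 0.0453 and 0.103 scaled FPKM in homozygotes, against 0.367 and 0.377 in wild types. With no filter on low values, both were called by limma, Klk1b8 higher (adjusted p = 0.0364) and Klk1b5 lower (0.0263). The authors' deposited table does not call them (q-values 0.0692 and 0.135). Klk1 itself, tissue kallikrein, was at 0.430 and 0.764 scaled FPKM in homozygotes, against 0.757 and 0.287 in wild types, and Klk1b27 was at 0.374 and 0.640, against 0.483 and 0.534. Both overlapped between genotypes.

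Klk1b24 was most of the Klk1-type RNA in wild types but not in homozygotes, which restates its call and is no further result. It made up 5.11% and 3.35% of the summed Klk1-type level in homozygotes 26 and 29, against 57.1% and 67.4% in wild types 27 and 28. The sum was 4.54 and 3.79 scaled FPKM in homozygotes, against 6.20 and 6.79 in wild types. Without Klk1b24 it was 4.31 and 3.66 in homozygotes, against 2.66 and 2.21 in wild types, so the direction turned. Klk1b11, which was not called, was the largest term of that rest in both homozygotes, at 2.82 and 1.52, against 0.662 and 0.515 in wild types. Klk1 and Klk1b27 overlapped and Klk1b5 lay lower in homozygotes, so the turn is not read as a rise of the other Klk1-type genes. These genes are near copies: of the 50-base windows of the Klk1b24 transcript, 33.9% also occur in transcripts of other genes, most of them in Klk1b21, and the shares for Klk1b11, Klk1b8 and Klk1b5 were 12.8%, 22.6% and 17.1%. No source used here says how reads that match several copies were assigned, so the levels of single copies are uncertain. The Klk1b24 and Klk1b11 transcripts were 88.7% identical over 882 aligned columns.

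The classical kallikreins Klk4 to Klk15, whose human counterparts include prostate and skin proteases, were close to absent. Of these 12 genes none passed the filter, and Klk4, Klk5, Klk12 and Klk15 were listed at 0 in all libraries. Klk8, neuropsin, was the highest at 0.798 and 0.938 scaled FPKM in homozygotes 26 and 29, against 0.479 and 0.399 in wild types 27 and 28, with no overlap and, with no filter on low values, a limma adjusted p = 0.0779. Another annotated gene, 2310002F09Rik, shares 26.2% of its 50-base windows, with both strands searched. Klk10 was at 0.153 and 0.150 in homozygotes, against 0.242 and 0.357 in wild types, and was not called with no filter (adjusted p = 0.193). Of the 20 kallikreins detected in any library, 3 lay above and 8 below the wild types in both homozygotes, and 9 overlapped, where 48.5% of all 17902 detected genes did not overlap. Of the kallikreins that did not overlap, 3 never reached 3 fragments in a library.

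**Figure D3:**
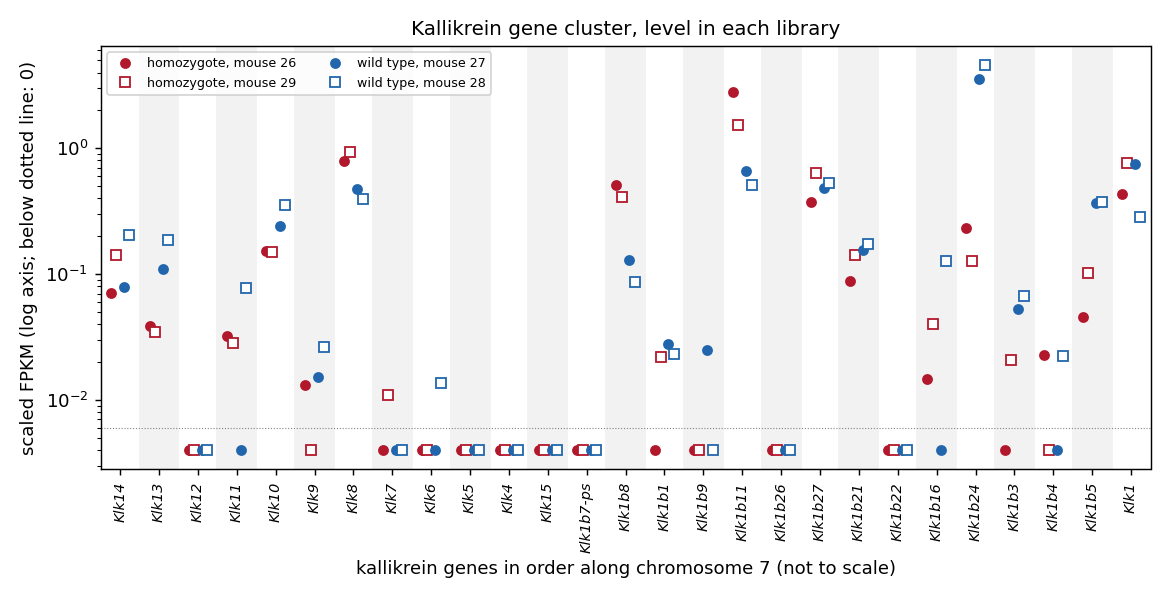
Scaled FPKM (log axis, values of 0 drawn below the dotted line) of the 27 kallikrein genes in their order along chromosome 7, not to scale, in homozygotes (red) and wild types (blue). Klk1b11, Klk1b8 and Klk8 are among the genes that lie higher, and Klk1b24, Klk1b5, Klk10 and Klk13 among those that lie lower, in both homozygotes, while 25 of the 27 genes stay under 1 scaled FPKM in every library.

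Type II transmembrane proteases, anchored by a stretch near the start of the protein, gave 1 call higher among 4 tested members and none lower. Tmprss4 (Entrez 214523, chromosome 9, 45172726 to 45204075), an epithelial protease studied in tumour invasion, was at 5.47 and 4.90 scaled FPKM in homozygotes 26 and 29, against 2.37 and 2.16 in wild types 27 and 28. Both homozygotes lay above both wild types. Its log2 fold change was 0.92 with SE 0.118 (limma adjusted p = 0.0109), with means of 5.18 ± 0.404 in homozygotes and 2.27 ± 0.147 in wild types (SD, n = 2 each). The call was lost without mouse 26 (log2 fold change 0.85) and without mouse 29 (0.98). Over the alternatives that kept every library, the adjusted p lay between 4.07e-04 (the authors' q-value) and 0.0406 (no filter on low values). At a minimum mean of 5 the gene was not tested. Another annotated gene, Gm17099, shares 14.2% of the Tmprss4 windows, with both strands searched. No source used here states whether counting used strand.

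The other membrane proteases of prostate epithelium showed no call. St14, matriptase, which activates prostasin and pro-HGF, was at 43.1 and 49.1 scaled FPKM in homozygotes 26 and 29, against 43.0 and 49.8 in wild types 27 and 28 (log2 fold change -0.01, SE 0.130, limma adjusted p = 0.986). Each genotype spans the same range. Hpn, hepsin, a protease raised in many human prostate cancers, was at 6.82 and 9.56 in homozygotes, against 8.89 and 9.85 in wild types (log2 fold change -0.19, SE 0.168, limma adjusted p = 0.612). Corin, which processes natriuretic peptides in heart, was under the filter at 0.235 and 0.295 in homozygotes, against 0.302 and 0.253 in wild types. Tmprss13 was at 10.9 and 13.5 in homozygotes, against 14.1 and 18.2 in wild types (log2 fold change -0.38, SE 0.166, limma adjusted p = 0.279). It was called lower without mouse 27 (0.0344), and over all alternatives its adjusted p lay between 0.0344 and 0.998.

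The Tmprss11 genes, proteases of squamous epithelia that adjoin each other on chromosome 5, followed a single library. Tmprss11a was listed at 0 and at 0.0294 scaled FPKM in homozygotes 26 and 29, against 0 and 1.68 in wild types 27 and 28. Tmprss11g was at 0.0193 and 0.00972 in homozygotes, against 0 and 1.39 in wild types, and Tmprss11e was listed at 0 in both homozygotes and in wild type 27 and was at 0.347 in wild type 28. All 3 were thus high in mouse 28 alone, and the genotypes overlap. With no filter, limma did not call Tmprss11a (adjusted p = 0.540) or Tmprss11g (0.542), whereas the authors' deposited table calls Tmprss11a, Tmprss11g and Tmprss11e lower with q-values of 1.17e-08, 1.39e-04 and 9.64e-04. Leaving mouse 28 aside, no Tmprss11 gene exceeded 0.0294 scaled FPKM. Sprr1a, a cornified envelope gene, was at 2.62 and 36.8 in homozygotes, against 4.61 and 134 in wild types, so it too was highest in mouse 28, as was the urothelial marker Upk2, at 2.64 and 9.93 in homozygotes, against 4.62 and 42.9 in wild types. The part of such tissue in the Tmprss11 values was not tested.

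Prss53, Prss8 and Prss36 lie close together on chromosome 7 and differed unequally. Prss53 (Entrez 330657, 127885444 to 127890970), a polyserase with more than 1 protease domain, was at 20.8 and 18.3 scaled FPKM in homozygotes 26 and 29, against 9.64 and 7.86 in wild types 27 and 28. The genotypes did not overlap. Its log2 fold change was 1.08 with SE 0.136 (limma adjusted p = 0.0105), and the call was lost without mouse 26 (log2 fold change 0.99). Over the alternatives that kept every library, the adjusted p lay between 3.44e-07 (the authors' q-value) and 0.0349 (no filter on low values). Of the 50-base windows of the Prss53 transcript, 81.3% also occur in 2 other annotated genes, chiefly a read-through gene (Gm21974) that joins it to Vkorc1. Vkorc1, the vitamin K reductase gene next to it, was at 150 and 125 scaled FPKM in homozygotes, against 99.4 and 82.4 in wild types, and did not pass (log2 fold change 0.59, SE 0.158, limma adjusted p = 0.0972), whereas the authors' deposited table calls it higher (log2 fold 0.66, q-value 0.00568). Whether read-through RNA enters the Prss53 value was not tested.

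The neighbours of Prss53 within the set were not called. Prss8, prostasin, which raises epithelial sodium channel activity, was the most abundant member at 43.7 and 49.3 scaled FPKM in homozygotes 26 and 29, against 48.9 and 58.4 in wild types 27 and 28 (log2 fold change -0.20, SE 0.136, limma adjusted p = 0.492), and the genotypes overlap. Prss36, a second polyserase, was at 1.29 and 1.18 in homozygotes, against 1.46 and 1.45 in wild types (log2 fold change -0.14, SE 0.119, limma adjusted p = 0.604).

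In the tryptase-like group on chromosome 17, 1 of 3 tested genes was called higher and none lower. Prss27 (Entrez 213171, 24038243 to 24045949), marapsin, a tryptase-like enzyme of stratified epithelium, was at 3.39 and 2.85 scaled FPKM in homozygotes 26 and 29, against 0.445 and 0.863 in wild types 27 and 28. Both homozygotes lay well above both wild types. Its log2 fold change was 1.33 with SE 0.169 (limma adjusted p = 0.0108), and no call was lost where it could be tested. Over its alternatives the adjusted p lay between 5.27e-05 (the authors' q-value) and 0.0364 (no filter on low values). At a pseudocount of 0.1 the log2 fold change was 2.15. Of its windows, 0% occur in another gene. Prss22, tryptase epsilon, overlapped, at 1.04 and 2.01 in homozygotes, against 1.57 and 2.87 in wild types (log2 fold change -0.35, SE 0.269, limma adjusted p = 0.553). Prss32 was at 1.29 and 0.508 in homozygotes, against 1.96 and 1.90 in wild types (log2 fold change -0.66, SE 0.215, limma adjusted p = 0.155), and the authors' deposited table calls it lower (q-value 0.0364).

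Prss28, a tryptase-like gene known from mouse uterus, lay under the filter. It was at 0.863 and 0.579 scaled FPKM in homozygotes 26 and 29, against 0.0755 and 0.0796 in wild types 27 and 28, or about 47 and 37 fragments against 3.7 and 4.4. The genotypes did not overlap, and limma called it higher with no filter (adjusted p = 0.0394), as did the authors' deposited table (q-value 5.59e-04). Mast cell markers moved with it: 5 of 6 tested markers rose, and the 7 markers summed to 181 and 143 scaled FPKM in homozygotes, against 11.2 and 13.9 in wild types. Tpsab1, a mast cell tryptase gene 2 rows away, was at 120 and 91.1 scaled FPKM in homozygotes, against 0.789 and 0.978 in wild types. The part of mast cells in the Prss28 value was not tested. Prss34, a tryptase of mast cells and basophils, was at 0.0695 and 0.0462 in homozygotes, against 0.0195 and 0 in wild types, a few fragments at most, and Prss29 was listed at 0 throughout.

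**Figure D4:**
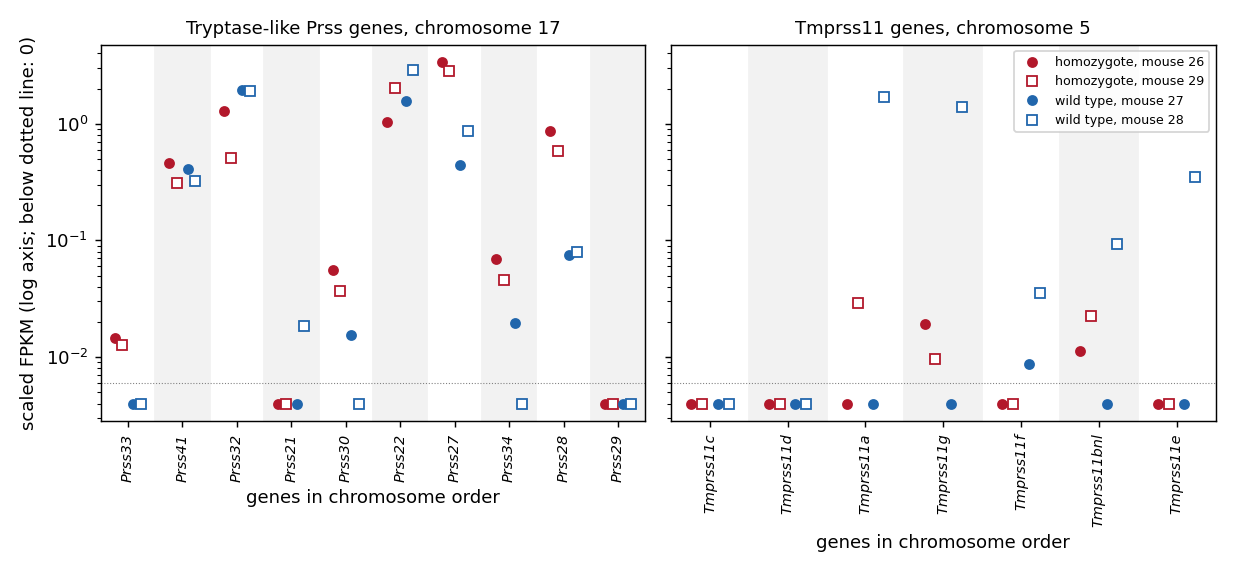
Scaled FPKM (log axis, values of 0 below the dotted line) of the tryptase-like Prss genes of chromosome 17 (left) and the Tmprss11 genes of chromosome 5 (right), in homozygotes (red) and wild types (blue). Prss27 and Prss28 are higher in both homozygotes, whereas Tmprss11a, Tmprss11g and Tmprss11e are high in mouse 28.

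Of the remaining Prss genes, 2 of 22 were tested and none was called. Prss23, a secreted protease of epithelium and stroma, was at 13.4 and 13.3 scaled FPKM in homozygotes 26 and 29, against 21.2 and 17.7 in wild types 27 and 28. The homozygotes lay below both wild types, but the difference did not pass (log2 fold change -0.51, SE 0.122, limma adjusted p = 0.0722). It was called lower without mouse 27 (0.0495) and without mouse 28 (0.0103), and over all alternatives the adjusted p lay between 0.0103 and 0.422. Another annotated gene, Prss23os, shares 25.7% of its windows. The 3 smooth muscle markers, Acta2, Myh11 and Des, also lay below both wild types in both homozygotes, and none was called. They summed to 640 and 762 scaled FPKM in homozygotes 26 and 29, against 1258 and 939 in wild types 27 and 28. Their part in the Prss23 value was not tested. Prss16 overlapped, at 0.932 and 1.34 in homozygotes, against 1.02 and 0.867 in wild types (log2 fold change 0.13, SE 0.149, limma adjusted p = 0.708). Another 13 were listed at 0 in all libraries.

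The pancreatic trypsinogens were near the detection limit. Prss1 and Prss3 were listed at 0, and Prss2 was at 0.507 and 0.415 scaled FPKM in homozygotes 26 and 29, against 0.139 and 0 in wild types 27 and 28. That is about 19 and 18 fragments in homozygotes, against 4.7 and 0 in wild types. With no filter Prss2 did not pass (limma adjusted p = 0.0648), nor did it in the authors' deposited table (q-value 0.0805). The 6 pancreas markers summed to at most 0.0932 scaled FPKM in any library, and Ptf1a, Cel and Amy2a5 were listed at 0.

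With no filter on low values, 7 of the 56 members with any signal were called, 5 higher and 2 lower, where 4.08% of 17902 genes were called. The authors' deposited table calls 10 of the 27 members it tests, 5 higher and 5 lower, where it calls 14.2% of 14374 genes. All 4 members called in the filtered fit are among the 10, in the same direction.

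Partners of these proteases were read from 3 companion lists, where 4.65% of all tested genes were called higher and 3.0% lower. Among 16 tested inhibitors of trypsin-like proteases, 2 rose and 1 fell (median log2 fold change -0.02). The rises were Wfdc2 (2.31, SE 0.302, limma adjusted p = 0.0115), a whey acidic protein family gene, and Serpina3n (1.53, SE 0.146, limma adjusted p = 0.00410). The fall was that of the trypsin inhibitor Spink3, at 97.1 and 8.70 scaled FPKM in homozygotes 26 and 29, against 38646 and 30639 in wild types 27 and 28. Spint2, a Kunitz inhibitor of matriptase and hepsin looked at for that role, was at 1145 and 1023 in homozygotes, against 663 and 643 in wild types, with no overlap but no call (log2 fold change 0.73, SE 0.188, limma adjusted p = 0.0881). Spint1, the other Kunitz inhibitor of matriptase, overlapped at 35.9 and 40.8, against 31.7 and 41.9.

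Among 19 tested substrates and partners, 2 rose and none fell (median log2 fold change 0.03). They were Epcam (0.79, SE 0.145, limma adjusted p = 0.0328), an adhesion protein cut by matriptase, and the urokinase receptor gene Plaur (1.73, SE 0.106). The sodium channel subunits Scnn1a and Scnn1b, looked at because prostasin acts on that channel, lay below the wild types in both homozygotes without passing (limma adjusted p = 0.0805 and 0.0626), while Scnn1g overlapped, at 0.697 and 1.18 scaled FPKM in homozygotes, against 0.633 and 2.08 in wild types. Among 18 tested proteases of the same S1 family outside the set, 5 rose and 3 fell (median 0.06), where 7.65% of all tested genes were called. The rises were the mast cell proteases Tpsab1, Tpsb2, Cma1, Mcpt2 and Mcpt4, and the falls Cela1, Habp2 and Tmprss2. Klkb1, plasma kallikrein, was under the filter at 0.0545 and 0.0528 scaled FPKM in homozygotes, against 0.744 and 0.504 in wild types.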

How the data were processed

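RNA was sequenced from prostate lobes of 4 mice, 2 of each genotype, grouped by the labels. The deposited table gives 1 FPKM value per gene and library; the headers name no unit, so it was read from the values. Per the submitters' processing notes, the tools were TopHat 1.3 and Cufflinks 1.3 and the build mm10, with no settings given. Beside them stand the authors' own log2 fold, p-value and q-value for each gene, per the file headers. Depth is an estimate from the lowest steps, and intervals of counting error cannot be given. Starts were raised by 1.

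FPKM was divided by median-of-ratios factors (1.01 and 1.04 for mice 26 and 29, 0.921 and 1.03 for mice 27 and 28). The repeated top value of 99999, in 7 genes and no member, was treated as missing. Genes averaging 1 scaled FPKM or more were fitted as log2(scaled FPKM + 1) with limma 3.58.1 in R 4.3.3 (eBayes, trended prior, two-sided, Benjamini-Hochberg over 11762 genes, threshold 0.05, 2 residual degrees of freedom). This scale understates changes of low genes. The fit was tested on simulated data. Where a library was left out, the remaining mouse of that genotype had no spread of its own and was taken to vary as the other genotype did. P-values rest on the spread between 2 mice a genotype, combined with a prior from all fitted genes that carries 3.62 degrees of freedom.

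Windows of 50 bases came from GENCODE M21 transcripts (83 members matched) and promoters from RefSeq (66 matched); alignments used Biopython 1.88. Values were given in full for called members, the 10 most abundant, Hpn, St14 and Corin, and members whose call changed. The members, lists and rules were chosen with earlier results of these data known. Alternatives were other scalings, pseudocounts, filters, variance priors, keeping the top value, leaving out each library, and the authors' call.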

Additional observations from a re-analysis of the deposited data

How the results depend on the processing

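The number of members called depended on the libraries and the filter. Over the fits that leave out 1 library, all genes called ranged from 355 (without mouse 26) to 2028 (without mouse 27), with 394 without mouse 29 and 1630 without mouse 28, members called higher from 1 (without mouse 26) to 4, and members called lower from 1 to 3 (without mouse 27). With no filter on low values 5 members were called higher and 2 lower, and at a minimum mean of 5, with 6 members tested, 1 and 0. The authors' deposited table calls 2034 genes and 5 members each way. Without scaling, 73.0% of all calls were rises, against 60.8% with it, and 3 members were higher and 1 lower either way. Of the values of single members under an alternative, 155 kept their direction and side of the threshold, 9 gained a call and 3 lost one. The other 5 were reversals of uncalled log2 fold changes near 0. Hpn ranged from -0.40 (without mouse 29) to 0.030 (without mouse 26). St14 ranged from -0.11 (without mouse 27) to 0.097 (without mouse 28) over the libraries left out, and was at 0.069 without scaling and 0.034 in the authors' deposited table. The cause was not tested. No paired analysis was possible because the labels give each mouse a number of its own.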
